A study of Mus musculus with 12 samples.

Results

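The expression of 48 cell cycle and mitosis genes was followed in 12 4T1 tumours. The genes were chosen by name for their roles, with earlier results of these data known. The value of each is the sum over its transcripts. Of 35865 genes in the tables, 15473 had at least 10 estimated reads in at least 3 libraries and were tested, all 48 members among them. The lowest estimated read number of a member in any library was 150, for Ccne1. By their roles, 20 members act in G1 and S phase (G1/S members) and 28 in G2 and mitosis or in its control (G2/M members).

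4T1 is a mouse mammary carcinoma line. The hosts were female BALB/c mice aged 6 to 8 weeks, each given 100000 4T1 cells subcutaneously. Every mouse received 3 µg of extracellular vesicles (EVs) every 2 days from day 5, and the tumours were taken on day 21. The EVs came from 1 mouse endothelial line, MS-1, and had been electroporated with a miRNA mimic, so that EVs and electroporation were common to all groups. The 4 groups of 3 tumours were set up to differ in the mimic. The control group (ctrl) had cel-miR-67, a nematode miRNA. The remaining mimics were miR-142-5p (group miR-142), miR-183-5p (group miR-183) and miR-222-3p (group miR-222). Each library is a whole tumour, in which fewer dividing cells and less RNA per dividing cell cannot be told apart, and p-values measure the spread between these tumours.

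Dividing cells copy their DNA in S phase and separate the copies in mitosis. In late G1 the kinases of cyclin D and cyclin E release E2F factors, which switch on the replication genes. Later in the cycle the MuvB complex with B-Myb and FoxM1 switches on the mitotic genes, and in resting cells the related DREAM complex silences both sets. Their transcripts are therefore abundant in proliferating tissue and scarce in resting tissue.

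The libraries held 20285968 to 27021401 estimated reads. The epithelial marker Krt8 was at 481 TPM or more in every tumour and Epcam at 69.7 TPM or more, where TPM is an abundance normalised for transcript length and library size. Of the other epithelial markers listed, Krt18 was at 632 TPM or more, Cdh1 at 45 TPM or more and Cldn7 at 19.9 TPM or more. Krt19 was low, at 0.87 to 10.4 TPM. Some libraries stood apart. B cell markers summed to 419 TPM in miR-142 tumour 3 and to 1.02 to 2.79 TPM elsewhere, and skeletal muscle markers to 274 TPM in miR-183 tumour 3 and to 7.5 to 14.4 TPM elsewhere. Gm28661 was at 38.8, 36.4 and 0.0782 TPM in the miR-222 tumours and at 1.72 TPM in miR-183 tumour 3, against 821 to 4257 TPM in the rest. The low side of that split held all 3 miR-222 tumours and 1 of the 3 miR-183 tumours, so it overlaps the miR-222 group without being the same, and what the split marks is not given in the sources used here. The part of these differences in the members' values was not tested.

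Sequences that members share are shown first. In this programme E2F sites are typical of G1/S promoters, the cell cycle genes homology region (CHR) of G2/M promoters, and CCAAT boxes often lie near a CHR. RefSeq windows from 250 bases before to 50 bases after the start site (GRCm38.p6) were matched for 38 members. Those without a match were Cdc25c, Gins2, Ccna2, Tpx2, Aurkb, Mcm4, Ccnd1, Ccne2, Foxm1 and Kif20a. Searched on both strands were TTTGAA for the CHR, CCAAT for the CCAAT box, and TTTGGCGC, TTTCCCGC, TTTCGCGC or TTTGCCGC for E2F. Matches to E2F words on opposite strands can overlap.

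The CHR word was in 15 of 22 G2/M promoters (68.2%) and in 2 of 16 G1/S promoters (12.5%, Cdc45 and Mcm2), against 12.8% of 11490 tested genes with a window. An E2F word was in 7 of 16 G1/S promoters (43.8%) and in 1 of 22 G2/M promoters (4.55%, Cdk1), against 3.76% of tested genes. CCAAT words were in 77.3% of G2/M and 62.5% of G1/S promoters, against 38.7%. CHR and CCAAT words stood together in 63.6% of G2/M promoters and in 5.35% of tested genes. Over all 27025 promoters in the table the shares were 18.1% for the CHR word, 37.9% for the CCAAT word, 2.32% for an E2F word and 7.12% for the CHR with the CCAAT word. A match is a description, not a bound site. Windows are printed for 10 members that the results return to or that show the motif near the start site, on the strand of the gene and with the motif in capitals. The Cdc6 match is on the other strand.
Cdc20, CHR, chr4:118437346-118437371, minus strand: acagttgggtTTTGAAggagccaatg
Plk1, CHR, chr7:122159455-122159480, plus strand: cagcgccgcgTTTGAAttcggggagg
Prc1, CHR, chr7:80294436-80294461, plus strand: tctggctcggTTTGAAttccgcgggg
Kif23, CHR, chr9:61946782-61946807, minus strand: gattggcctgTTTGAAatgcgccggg
Ccnb2, CHR, chr9:70421535-70421560, minus strand: cggcgcggtaTTTGAAtcgcggaccg
Cdk1, CHR, chr10:69352912-69352937, minus strand: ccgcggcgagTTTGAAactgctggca
Mcm6, E2F, chr1:128359735-128359762, minus strand: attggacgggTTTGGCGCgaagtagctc
Mcm7, E2F, chr5:138171850-138171877, minus strand: ggtgacgacgTTTCGCGCcaatttcggt
Cdt1, E2F, chr8:122568037-122568064, plus strand: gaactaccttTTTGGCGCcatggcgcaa
Cdc6, E2F, chr11:98908003-98908030, plus strand: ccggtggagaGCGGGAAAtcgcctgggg

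A miRNA pairs with 3′ UTRs mainly through its seed, bases 2 to 8. The RefSeq mature sequences (GRCm38.p6) of the mouse miRNAs are printed with the seed in capitals, and all 3 seeds differ.
mmu-miR-142a-5p, chr11:87756867-87756887, plus strand: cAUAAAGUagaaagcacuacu
mmu-miR-183-5p, chr6:30169711-30169732, minus strand: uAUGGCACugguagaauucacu
mmu-miR-222-3p, chrX:19146901-19146923, minus strand: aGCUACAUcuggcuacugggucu

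Seed matches were sought in the 3′ UTR of the most abundant coding transcript, which was annotated for 46 members. A match to bases 2 to 8 is a 7mer-m8 site, and one followed by an A is an 8mer site. Matches to the control mimic cel-miR-67, which the ctrl tumours received, were not sought. For miR-142, 4 members had a match (8.7%, against 14.3% of 14356 tested genes), for miR-222 there were 3 (6.52%, against 9.57%), and for miR-183 there were 0 (against 9.34%). The median 3′ UTR was 567 bases long in the members and 967 bases in the tested genes. The sites (GRCm38, strand of the gene, match in capitals) are printed because these genes are read against the mimics further on, with the sites of the pathway gene Cdkn1b (p27, an inhibitor of cyclin E kinase).
Ccne2, miR-142 7mer-m8, chr4:11203941-11203962, plus strand: taagaaagtcACTTTATtgcac
Ccnb1, miR-142 7mer-m8, chr13:100778675-100778696, minus strand: caatatggagACTTTATgttgc
Kif11, miR-142 7mer-m8, chr19:37421131-37421152, plus strand: atcttttaaaACTTTATtcctt
Mcm2, miR-142 7mer-m8, chr6:88883731-88883752, minus strand: caggtgacagACTTTATcaaaa
Ccna2, miR-222 8mer, chr3:36565745-36565767, minus strand: actgttttcaATGTAGCAgaact
Mki67, miR-222 8mer, chr7:135690047-135690069, minus strand: aagtgaaactATGTAGCAaagac
Foxm1, miR-222 7mer-m8, chr6:128376085-128376106, plus strand: cagtcttgttATGTAGCtcggg
Cdkn1b, miR-222 8mer, chr6:134924421-134924443, plus strand: aaagcattggATGTAGCAttgcg
Cdkn1b, miR-183 7mer-m8, chr6:134922747-134922768, plus strand: tagaggttgtGTGCCATcacct

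All members were expressed in all 12 tumours. By median level the most abundant were Cdk4 (532 TPM), Top2a (343 TPM), Ccnd1 (331 TPM), Cdk1 (211 TPM) and Pcna (201 TPM). The least abundant were Ccne2 (7.47 TPM), Kif11 (8.83 TPM), Ccne1 (9.38 TPM) and Mybl2 (10.6 TPM). Transcripts not annotated as protein coding held a median of 65.7% of the TPM of Cdk4 and 65% of that of Top2a, against 2.04% for Ccnd1. Both E-type cyclins were near the bottom of the range. Summed over the members, the level was 3470, 5072 and 3043 TPM in ctrl tumours 1 to 3 and 3889, 2962 and 3827 TPM in miR-142. It was 3849, 3937 and 4604 TPM in miR-183 and 3014, 4193 and 3621 TPM in miR-222. The highest sum was in ctrl tumour 2, and the lowest were in miR-142 tumour 2, miR-222 tumour 1 and ctrl tumour 3.

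The members moved together from tumour to tumour within the groups. Of the 48, 17, 47 and 2 were above their own median in ctrl tumours 1 to 3. The numbers were 37, 2 and 25 in miR-142, 25, 33 and 43 in miR-183 and 1, 38 and 18 in miR-222. The highest normalised count (reads scaled for library size and transcript length) was in ctrl tumour 2 for 28 members and in miR-183 tumour 3 for 17. The lowest was in ctrl tumour 3 for 23, in miR-222 tumour 1 for 13 and in miR-142 tumour 2 for 10. These 5 tumours came from all 4 groups.

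**Figure D1:**
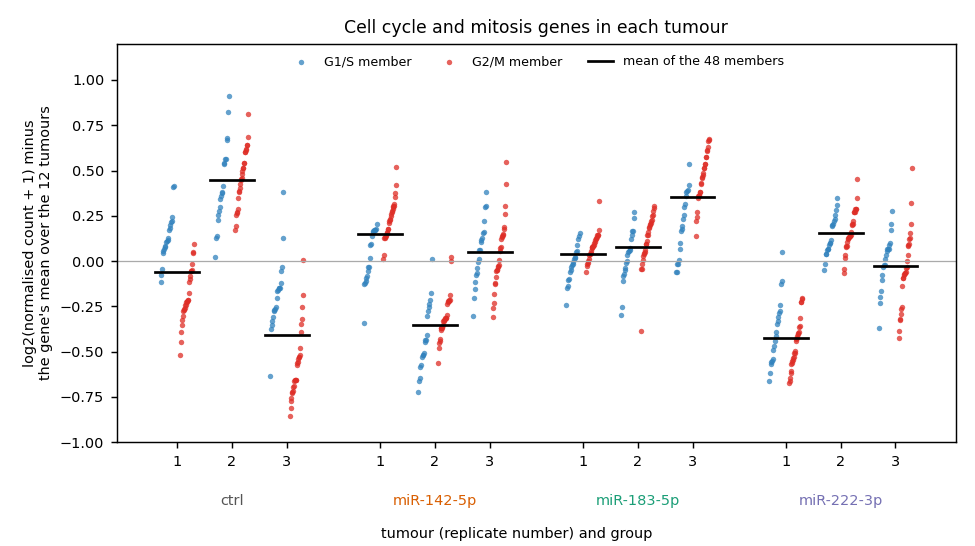
Each point is 1 of the 48 members in 1 tumour, as log2(normalised count + 1) minus the mean of that gene over the 12 tumours, with G1/S and G2/M members in separate colours and the mean of all members marked. Ctrl tumour 2 (0.45) and miR-183 tumour 3 (0.36) had the highest means, and miR-222 tumour 1 (-0.43), ctrl tumour 3 (-0.41) and miR-142 tumour 2 (-0.36) the lowest.

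As group means ± SD of the per-tumour means (log2 difference from the gene means, n = 3), the members were at -0.01 ± 0.43 in ctrl, -0.05 ± 0.27 in miR-142, 0.16 ± 0.17 in miR-183 and -0.10 ± 0.30 in miR-222. For 47 of 48 members the SD within groups exceeded the SD of the 4 group means (medians 0.361 and 0.164 on the log2 scale). The same medians were 0.192 and 0.0885 over the 11536 tested genes with a mean normalised count of at least 100. The coefficient of variation over the 12 tumours had a median of 23% for the members and 13% for those genes. Between the highest and the lowest tumour a member differed by a median of 2.17-fold, from 1.22-fold for Cdk2 to 3.11-fold for Mcm5. For 9 members (18.8%) all treated tumours lay inside the range of the 3 ctrl tumours, as they did for 7.58% of genes tested. At the other end was Ccne2, with 2 treated tumours inside that range.

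The contrasts ask whether EVs with a given mimic went with another level of the proliferation programme than control EVs. No member passed an adjusted p of 0.05 in any of the 6 contrasts with DESeq2 (Wald test, adjusted over all genes by Benjamini-Hochberg), with edgeR or with limma on log2(TPM + 1). Of all genes, 0.00648% were called by DESeq2 in miR-142, 0% in miR-183 and 0.0259% in miR-222 against ctrl. Between mimics the share was 0.0519% for miR-183 over miR-142, 0.0324% for miR-183 over miR-222, and 0.0389% for miR-142 over miR-222. The median standard error of a member's log2 fold change was 0.26. At an unadjusted p of 0.05, DESeq2 left 1 member in each contrast with ctrl, which was Ccne2 in miR-142 (background 3.58% of genes), Kif23 in miR-183 (3.22%) and Mcm6 in miR-222 (2.31%). The numbers were 1, 1 and 0 with edgeR and 1, 0 and 0 with limma. With the compared groups alone in the DESeq2 fit they were 1 (background 2.25%), 2 (4.81%) and 1 (1.66%). The numbers depended on single ctrl tumours. Without ctrl tumour 2 they were 6, 23 and 2, and without ctrl tumour 3 they were 5, 0 and 4, with 0 members called. The share over all genes was not taken in these fits, and members move together.

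Against ctrl, the median log2 fold change of the members was -0.06 in miR-142 (21 of 48 positive), 0.14 in miR-183 (32 positive) and -0.12 in miR-222 (11 positive). Over all genes tested the medians were -0.005, -0.011 and -0.008. The 3 contrasts share the ctrl tumours, and the sign of each median turned when 1 of these was left out. Without ctrl tumour 2 they were 0.226, 0.471 and 0.160. Without ctrl tumour 3 they were -0.206, -0.071 and -0.302. Without miR-183 tumour 3, the median in miR-183 was 0.044. Read gene by gene, the log2 fold change of 33, 25 and 37 of the 48 members took both signs when each tumour was left out in turn.

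**Figure D2:**
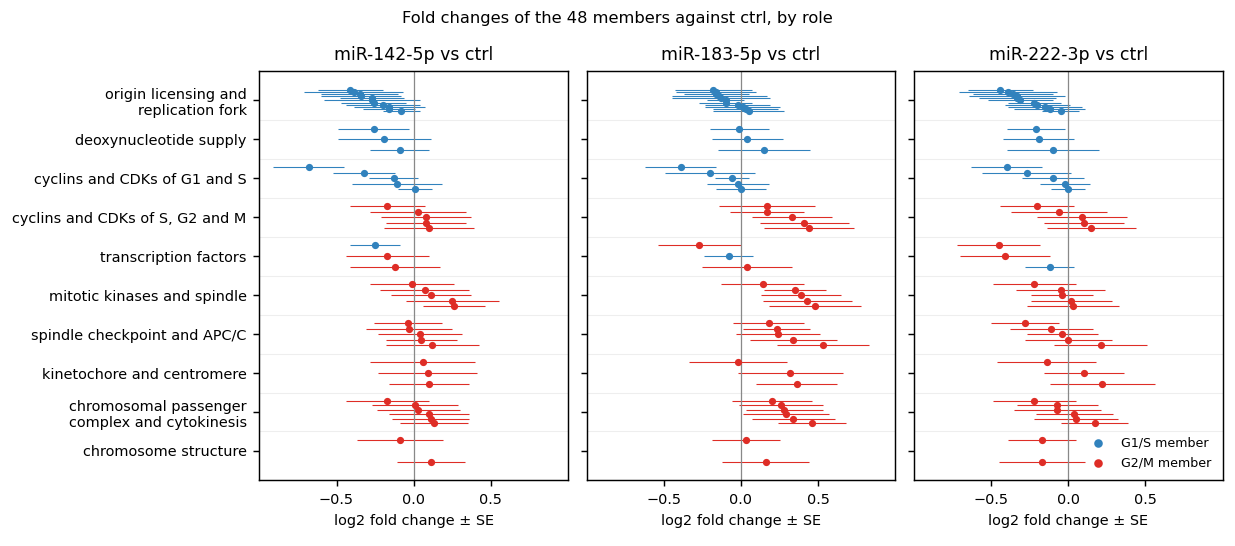
Log2 fold changes against ctrl (points) with standard errors (bars) for the 48 members by role, 1 panel per mimic. The 11 licensing and fork genes all have negative values in miR-142 (median -0.27) and miR-222 (median -0.31), and the 5 mitotic kinase and spindle genes all have positive values in miR-183 (median 0.39), but no gene passed the test.

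Read by phase, the medians of the members differed in sign in miR-142 and miR-183, while both were negative in miR-222. In miR-142, 1 of 20 G1/S members had a positive log2 fold change against ctrl (median -0.25), and 20 of 28 G2/M members had one (median 0.07). In miR-183 the numbers were 6 G1/S members (median -0.07) and 26 G2/M members (median 0.28). In miR-222 they were 0 (median -0.20) and 11 (median -0.04). When each tumour was left out in turn, a check added after the values were seen, the G2/M median in miR-183 stayed between 0.08 and 0.60. The G1/S median stayed between -0.41 and -0.08 in miR-142 and between -0.35 and -0.04 in miR-222. The remaining 3 medians took both signs. Members of a phase move together and share the ctrl tumours, so these counts are a description.

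**Figure D3:**
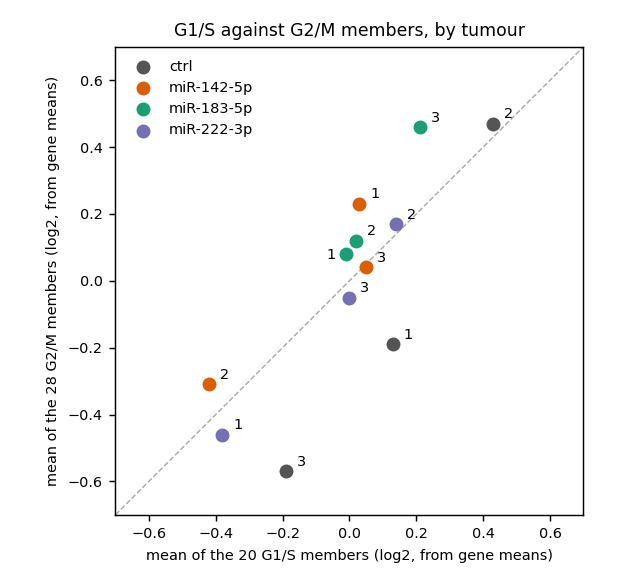
Each point is 1 tumour, placed by the mean of the 20 G1/S members (x axis) and of the 28 G2/M members (y axis), as log2 differences from the gene means, and the dashed line marks equal values. Ctrl tumours 1 and 3 lie furthest below the line, with G1/S above G2/M by 0.33 and 0.38, and miR-183 tumour 3 (-0.25) and miR-142 tumour 1 (-0.20) furthest above it.

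The G1/S mean minus the G2/M mean was 0.33, -0.04 and 0.38 in ctrl tumours 1 to 3. It was -0.20, -0.11 and 0.01 in miR-142, -0.09, -0.09 and -0.25 in miR-183 and 0.07, -0.02 and 0.04 in miR-222. The miR-183 tumours were all below the ctrl tumours, narrowly so for ctrl tumour 2. The miR-142 and miR-222 tumours overlapped ctrl. The same difference between 30 other replication genes and 37 other kinetochore, spindle and cytokinesis genes was 0.33, -0.09 and 0.26 in ctrl and -0.11, -0.05 and -0.26 in miR-183, and there the groups overlapped.

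Origin licensing and the replication fork were represented by 11 members. Mcm2 to Mcm7 encode the subunits of the replicative helicase, Cdc6 and Cdt1 load it onto origins, Cdc45 and Gins2 are part of its active form, and Pcna is the polymerase clamp. Mcm6 had normalised counts of 4197, 6358 and 3833 in ctrl and 3893, 2653 and 4302 in miR-142. In the other groups it stood at 4235, 4137 and 4463 in miR-183 and 3163, 4086 and 3387 in miR-222. Ctrl tumour 2 was far above the rest, and ctrl tumours 1 and 3 were among the treated ones. In miR-142 the log2 fold change was -0.41 (SE 0.21, adjusted p = 1) and in miR-222 it was -0.44 (SE 0.21, adjusted p = 1). Without ctrl tumour 2 it was -0.15 and -0.18. The lowest values were -0.55 in miR-142, without miR-142 tumour 3, and -0.57 in miR-222, without ctrl tumour 3.

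Normalised counts of Mcm2 were 1897, 2806 and 1584 in ctrl, 1636, 1116 and 2175 in miR-142, 1792, 1723 and 2023 in miR-183 and 1300, 1840 and 1847 in miR-222. Those of Pcna were 4916, 4939 and 3742 in ctrl, 4675, 3363 and 4169 in miR-142, 4009, 4323 and 4348 in miR-183 and 3261, 4739 and 3701 in miR-222. Both genes overlapped between all groups. Mcm2 has a miR-142 seed match, and its log2 fold change there was -0.35 (SE 0.25, adjusted p = 1). Within the family the widest range over tumours was that of Mcm5 (3.11-fold) and the narrowest that of Mcm7 (1.27-fold). By sign, 0, 3 and 0 of the 11 genes were above ctrl in miR-142, miR-183 and miR-222, with medians of -0.27, -0.10 and -0.31.

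Deoxynucleotides are supplied by ribonucleotide reductase (Rrm1 and Rrm2) and thymidylate synthase (Tyms). The log2 fold changes of these 3 genes had medians of -0.19, 0.04 and -0.19 against ctrl. Rrm2 varied most of them, from 1346 in miR-142 tumour 2 to 3112 in ctrl tumour 2.

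Among the cyclins and kinases of G1 and S, Ccne2 had the lowest unadjusted p of any member in any contrast. It encodes cyclin E2, which activates Cdk2 at the entry into S phase. Its normalised counts were 327, 429 and 379 in ctrl and 229, 202 and 277 in miR-142. They were 245, 269 and 357 in miR-183 and 269, 370 and 224 in miR-222. All miR-142 tumours were below all ctrl tumours, and the other groups overlapped ctrl. The log2 fold change in miR-142 was -0.68 (SE 0.23, 95% interval -1.13 to -0.23, adjusted p = 0.777), and it ranged from -0.81 to -0.58 when 1 tumour was left out. In miR-183 it was -0.39 (SE 0.23, adjusted p = 1) and in miR-222 -0.40 (SE 0.23, adjusted p = 1), and the latter was -0.62 without miR-222 tumour 2 and -0.24 without miR-222 tumour 3. Set against each other, miR-183 and miR-142 differed by 0.29 (SE 0.23, adjusted p = 0.883). Ccne2 is also 1 of the 4 members with a miR-142 seed match. For the others the log2 fold change in miR-142 was 0.08 (Ccnb1), -0.01 (Kif11) and -0.35 (Mcm2).

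The paralog Ccne1, which encodes cyclin E1, was at 316, 292 and 196 in ctrl, 273, 165 and 309 in miR-142, 240, 193 and 268 in miR-183 and 159, 289 and 220 in miR-222. Its groups overlapped, and the log2 fold change in miR-142 was -0.11 (SE 0.29, adjusted p = 1). Whether the paralogs differed was not tested. Cdk2, the partner of both, ranged by 1.22-fold over all tumours and Cdk4 by 1.4-fold.

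Ccnd1 encodes cyclin D1, which couples growth signals to Cdk4 and Cdk6. It was at 20748, 28997 and 15634 in ctrl and 18356, 17691 and 16193 in miR-142. In the other groups it stood at 19174, 22068 and 23418 in miR-183 and 16874, 23286 and 20902 in miR-222. The 3 ctrl tumours spanned all treated ones, and every miR-183 tumour was above every miR-142 tumour. The log2 fold change between those mimics was 0.31 (SE 0.20, adjusted p = 0.83). Against ctrl it was -0.32 (SE 0.20, adjusted p = 1) in miR-142, -0.06 without ctrl tumour 2 and -0.51 without ctrl tumour 3.

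Of the 5 members that drive S, G2 and M, Cdk1 is the mitotic kinase, Ccna2, Ccnb1 and Ccnb2 encode its cyclins, and Cdc25c activates it. Cdk1 was at 2695, 3978 and 1961 in ctrl and 3002, 2197 and 2496 in miR-142. In the other groups it stood at 3019, 3107 and 3563 in miR-183 and 1868, 2969 and 2673 in miR-222. The miR-183 tumours were above all miR-142 and all miR-222 tumours and inside the ctrl range. Log2 fold changes of miR-183 were 0.33 (SE 0.24, adjusted p = 0.858) over miR-142, 0.37 (SE 0.24, adjusted p = 0.999) over miR-222 and 0.17 (SE 0.24, adjusted p = 1) over ctrl.

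Ccna2 was at 2822, 4293 and 2076 in ctrl, 3948, 2541 and 3217 in miR-142, 3569, 3626 and 4395 in miR-183 and 2478, 4006 and 3352 in miR-222. For Ccnb1 the counts were 1482, 2721 and 1234 in ctrl, 2254, 1551 and 1955 in miR-142, 1965, 2151 and 3102 in miR-183 and 1479, 2477 and 1826 in miR-222. In both genes miR-183 tumour 3 was highest and ctrl tumour 3 lowest. Ccna2 has an 8mer match to miR-222, and its log2 fold change there was 0.10 (SE 0.26, adjusted p = 1). Of the 5 genes, 5 were positive in miR-183 (median 0.33), 4 in miR-142 (median 0.08) and 3 in miR-222 (median 0.09).

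E2f1, Foxm1 and Mybl2 are the transcription factors of the programme. E2f1 was at 987, 1041 and 778 in ctrl, 844, 724 and 797 in miR-142, 897, 937 and 827 in miR-183 and 695, 992 and 895 in miR-222, a narrow range of 1.5-fold. Foxm1 was at 1444, 3172 and 1451 in ctrl and 2128, 1448 and 2008 in miR-142. In the other groups it stood at 1877, 1845 and 2532 in miR-183 and 1252, 1832 and 1479 in miR-222. Ctrl tumour 2 was highest in Foxm1, whereas the other ctrl tumours were near its low end. Foxm1 has a 7mer-m8 match to miR-222, with a log2 fold change of -0.41 (SE 0.29, adjusted p = 1) there.

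Mybl2 encodes B-Myb. Its normalised counts were 518, 767 and 502 in ctrl, 504, 358 and 730 in miR-142, 545, 382 and 551 in miR-183 and 354, 478 and 474 in miR-222. The miR-222 tumours lay below the ctrl tumours by a small margin, and the other groups overlapped ctrl. Its log2 fold change in miR-222 was -0.45 (SE 0.27, adjusted p = 1), -0.23 without ctrl tumour 2 and -0.56 without ctrl tumour 3.

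**Figure D4:**
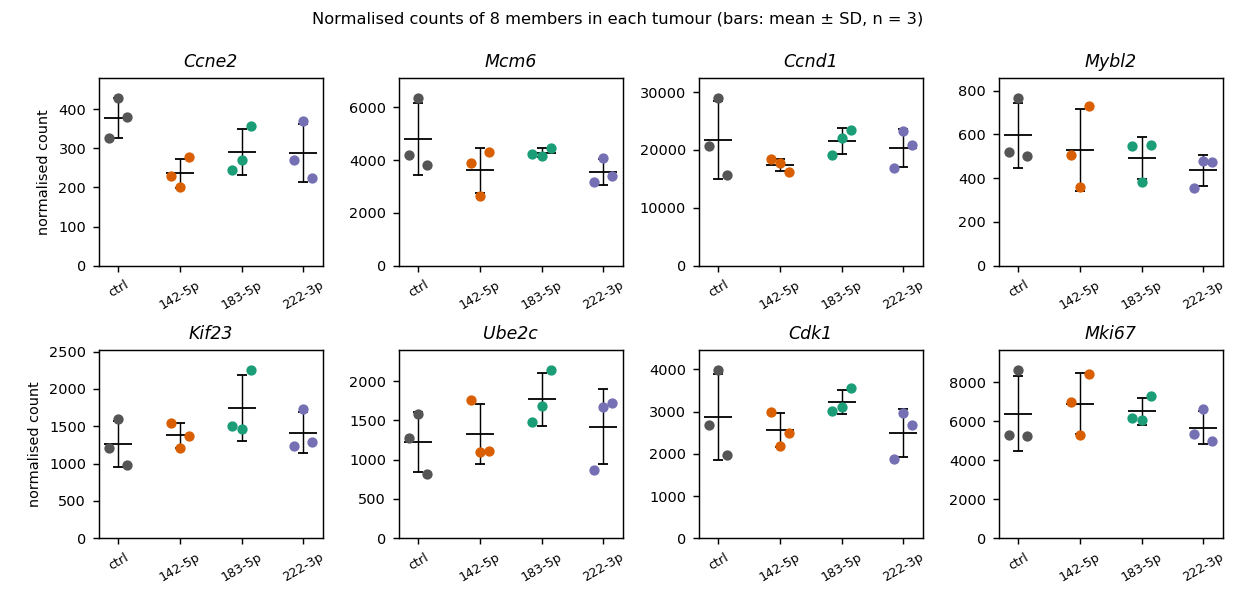
Normalised counts of 8 members in each tumour (points) with group means and SD (bars, n = 3), each y axis starting at 0. All miR-142 tumours are below ctrl in Ccne2 and all miR-222 tumours are below ctrl in Mybl2, while in the other 6 genes every treated group overlaps the ctrl tumours.

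Among mitotic kinases and spindle genes, Plk1 and Aurka drive mitotic entry and spindle assembly, Tpx2 activates Aurka, Kif11 is a spindle motor and Nusap1 binds spindle microtubules. Plk1 was at 757, 1553 and 634 in ctrl, 1340, 933 and 1228 in miR-142, 1223, 1270 and 1618 in miR-183 and 709, 1147 and 1154 in miR-222. Aurka was at 884, 1506 and 648 in ctrl, 1290, 856 and 1047 in miR-142, 1177, 1290 and 1623 in miR-183 and 666, 1091 and 1184 in miR-222. In both, the miR-183 tumours were above ctrl tumours 1 and 3, and of them tumour 3 alone was above ctrl tumour 2. Log2 fold changes in miR-183 were 0.48 (SE 0.30, adjusted p = 1) for Plk1 and 0.43 (SE 0.29, adjusted p = 1) for Aurka. They were 0.98 and 0.83 without ctrl tumour 2, and 0.25 and 0.19 without ctrl tumour 3. Nusap1 was at 1182, 1728 and 988 in ctrl, 1688, 1416 and 1568 in miR-142, 1527, 1608 and 1819 in miR-183 and 1102, 1501 and 1188 in miR-222, overlapping through ctrl tumour 2. Its log2 fold change was 0.35 (SE 0.20, adjusted p = 1) in miR-183 and 0.26 (SE 0.20, adjusted p = 1) in miR-142. Without ctrl tumour 2 these were 0.60 and 0.52, and without ctrl tumour 3 they were 0.18 and 0.10.

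Chromosome separation is held back by the spindle checkpoint (Bub1, Bub1b and Mad2l1) and set off by the anaphase-promoting complex (APC/C), with Cdc20 as its activator and Ube2c as its ubiquitin-conjugating enzyme. Ube2c was at 1274, 1580 and 818 in ctrl, 1764, 1102 and 1114 in miR-142, 1480, 1689 and 2136 in miR-183 and 871, 1665 and 1721 in miR-222. The miR-183 tumours were high, but 1 of them was below ctrl tumour 2. The log2 fold change in miR-183, 0.53 (SE 0.30, 95% interval -0.05 to 1.11, adjusted p = 1), was the largest of the members in that contrast. It was 0.31 without ctrl tumour 3 and 0.76 without ctrl tumour 2.

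Bub1 and Cdc20 were picked after their values were seen, because their groups separated between mimics. Bub1 was at 1223, 1039 and 1265 in miR-183 and 716, 945 and 809 in miR-222, with a log2 fold change of 0.51 (SE 0.22, adjusted p = 0.999). In ctrl it was at 814, 1332 and 855 and in miR-142 at 1139, 753 and 1021, both overlapping miR-183. Cdc20 was at 1656, 1395 and 1584 in miR-142 and 1713, 1862 and 2409 in miR-183, with a log2 fold change of 0.37 (SE 0.28, adjusted p = 0.881). In ctrl Cdc20 was at 1395, 2362 and 976, a range that held the miR-142 tumours and miR-183 tumours 1 and 2.

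At the centromere, Cenpa is the histone H3 variant that marks it, Cenpe a kinetochore motor and Cenpf a kinetochore protein. Cenpe departed from the common order, with its highest counts in miR-142 tumour 1 (2946) and miR-222 tumour 3 (2936). All 9 treated tumours were inside the ctrl range of Cenpf. Against ctrl the log2 fold changes of the 3 genes ran from -0.14 (Cenpf, miR-222) to 0.36 (Cenpa, miR-183).

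The chromosomal passenger complex (Aurkb and Birc5) and cytokinesis (Kif20a, Kif23, Prc1 and Anln, which build the central spindle and the cleavage furrow) gave 6 members. Kif23 was at 1214, 1597 and 975 in ctrl, 1550, 1214 and 1369 in miR-142, 1510, 1465 and 2249 in miR-183 and 1232, 1728 and 1289 in miR-222. Tumour 3 of miR-183 was far above the rest, and the other miR-183 tumours were within the ctrl range. The log2 fold change over ctrl was 0.46 (SE 0.22, 95% interval 0.02 to 0.90, adjusted p = 1), 0.24 without that tumour and 0.67 without ctrl tumour 2. Over miR-142 it was 0.34 (SE 0.22, adjusted p = 0.836), 0.11 without miR-183 tumour 3 and 0.45 without miR-183 tumour 2.

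Anln encodes anillin of the cleavage furrow. Its counts were 2792, 5276 and 2581 in ctrl, 3738, 2473 and 3264 in miR-142, 3716, 3609 and 5400 in miR-183 and 2898, 3717 and 2525 in miR-222. With 0.43 (SE 0.27, adjusted p = 0.816) it had the largest log2 fold change of miR-183 over miR-142, which was 0.21 without miR-183 tumour 3 and 0.56 without miR-142 tumour 1. Birc5 encodes survivin and was at 1732, 2004 and 1066 in ctrl, 2072, 1340 and 1480 in miR-142, 1736, 2004 and 2340 in miR-183 and 1105, 1935 and 1937 in miR-222. Its groups overlapped in every contrast with ctrl, with log2 fold changes of 0.03, 0.34 and 0.05 (SE 0.27 each). Birc5 is the member that also stands in the study's list of tumour-associated macrophage genes.

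Top2a untangles chromosomes, and Mki67 encodes the proliferation marker Ki-67. Top2a was at 11184, 18197 and 8050 in ctrl, 14894, 9377 and 11010 in miR-142, 12961, 13783 and 15223 in miR-183 and 8078, 13942 and 11207 in miR-222, with all treated tumours inside the ctrl range. Mki67 was at 5298, 8601 and 5241 in ctrl, 6978, 5301 and 8413 in miR-142, 6138, 6062 and 7308 in miR-183 and 5350, 6638 and 5006 in miR-222, with 8 of 9 treated tumours inside it. The log2 fold change of Mki67 was 0.11 (SE 0.22, 95% interval -0.32 to 0.54) in miR-142, 0.03 (SE 0.22, 95% interval -0.40 to 0.46) in miR-183 and -0.17 (SE 0.22, 95% interval -0.60 to 0.26) in miR-222, for which it has an 8mer match.

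Separation of whole groups was counted in each contrast. In miR-142 against ctrl, 0 members were higher without overlap (background 3.13% of genes tested) and 1 was lower, Ccne2 (2.95%). In miR-183, 0 were higher (4.45%) and 0 lower (4.76%). In miR-222, 0 were higher (2.96%) and 1 was lower, Mybl2 (2.57%).

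Between mimics the members were higher in miR-183 by sign, and as members move together these counts are a description. Of all 15473 genes tested, 7656 were positive for miR-183 over miR-142 (median -0.003) and 7607 for miR-183 over miR-222 (median -0.004). For miR-142 over miR-222, 7883 were positive (median 0.004). The members are given in the same order. Over miR-142, 42 of 48 log2 fold changes were positive (median 0.24), 3 members were higher without overlap (Ccnd1, Cdc20 and Cdk1, background 5.92%) and 0 were lower (6.43%). On deposited TPM Anln joined these 3 (background 5.6%). Over miR-222, 46 were positive (median 0.25), 6 were higher without overlap (Bub1, Cdk1, Foxm1, Mcm6, Nusap1 and Plk1, background 4.6%) and 0 were lower (4.46%). On deposited TPM the number higher was again 6 (background 3.44%), but Foxm1 and Mcm6 overlapped there and Aurka and Gins2 did not. For miR-142 over miR-222, 28 were positive (median 0.03), with 0 higher (2.92%) and 0 lower without overlap (3.32%), while on deposited TPM 1 was lower, Ccnd1 (4.21%). At an unadjusted p of 0.05 there were 0 members for miR-183 over miR-142 (background 7.95%), 1 over miR-222 (Bub1, background 3.25%) and 0 for miR-142 over miR-222 (3.63%), and edgeR and limma gave the same numbers. With the compared groups alone in the DESeq2 fit the numbers were 4 (background 8.8%), 10 (4.32%) and 0 (2.34%), with 0 members called. The median over miR-142 was 0.066 without miR-142 tumour 2, and that over miR-222 was 0.072 without miR-222 tumour 1. Without miR-183 tumour 3 they were 0.114 and 0.128.

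Other genes of the pathway came from 7 lists with 131 tested genes, none of which was called by DESeq2 in any contrast. Against ctrl, 51, 86 and 29 of them were positive in miR-142, miR-183 and miR-222 (medians -0.02, 0.05 and -0.09). At an unadjusted p of 0.05, 0 were higher in any of these contrasts (background 2.29%, 1.62% and 1.21%). Lower were 1, 2 and 5, all of them among the 30 other replication genes (background 1.3%, 1.59% and 1.11%). Of 37 other kinetochore, spindle and cytokinesis genes, 21, 35 and 5 were positive (medians 0.01, 0.21 and -0.10).

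Orc1 and Orc2 encode subunits of the origin recognition complex. Orc1 was at 249, 323 and 231 in ctrl, 115, 227 and 246 in miR-142, 162, 157 and 201 in miR-183 and 151, 114 and 179 in miR-222. All miR-183 and all miR-222 tumours were below the ctrl tumours, with log2 fold changes of -0.63 (SE 0.29, adjusted p = 1) and -0.86 (SE 0.29, adjusted p = 1). Orc2 was at 733, 922 and 798 in ctrl and 540, 537 and 706 in miR-142, again without overlap, with a log2 fold change of -0.46 (SE 0.15, adjusted p = 0.684).

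Of 6 tested inhibitors of the cycle, 2, 5 and 3 were positive against ctrl in miR-142, miR-183 and miR-222 (medians -0.09, 0.25 and 0.00). In miR-183, 2 were higher than ctrl without overlap, Cdkn1a and Cdkn2a (background 4.45% of genes tested). Cdkn2a had low counts, 8.59, 9.62 and 8.16 in miR-183 against 6.92, 4.25 and 4.18 in ctrl. Cdkn1a (p21) was at 1357, 1334 and 1070 in ctrl, 1462, 785 and 844 in miR-142, 1866, 1483 and 1511 in miR-183 and 1031, 1396 and 1467 in miR-222. Its miR-183 tumours were above all ctrl tumours, with a log2 fold change of 0.37 (SE 0.23, adjusted p = 1). Cdkn1b (p27) was at 3214, 3187 and 3662 in ctrl, 3183, 3013 and 3101 in miR-142, 3174, 3749 and 3084 in miR-183 and 3449, 3356 and 2973 in miR-222. It has seed matches to miR-183 and miR-222, where its log2 fold change was -0.01 (SE 0.11, 95% interval -0.23 to 0.21) and -0.04 (SE 0.11, 95% interval -0.26 to 0.18). In miR-142, where no seed match was found, the Cdkn1b tumours were all just below ctrl (-0.11). Cdkn1c had 3 to 15 estimated reads per library and was not tested. Rb1, which restrains E2F, was at 847, 737 and 902 in ctrl, 1010, 968 and 844 in miR-142, 934, 785 and 595 in miR-183 and 1219, 880 and 538 in miR-222, with groups overlapping.

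The gene of lowest p in each remaining list is given with its log2 fold change against ctrl in miR-142, miR-183 and miR-222 in turn. Among pocket proteins, E2F partners and DREAM subunits these were Tfdp1 (-0.30, SE 0.18), Lin52 (-0.17, SE 0.15) and Tfdp1 (-0.18, SE 0.17). Other cyclins and entry control gave Ccnd2 (-0.21, SE 0.19), Pkmyt1 (-0.24, SE 0.20) and Ccnf (-0.28, SE 0.20). Other kinetochore and spindle genes gave Dsn1 (0.22, SE 0.15), Kif18a (0.39, SE 0.23) and Hjurp (-0.31, SE 0.16). Condensin, cohesin and their release gave Stag1 (-0.18, SE 0.15), Pttg1 (0.46, SE 0.29) and Ncapg2 (-0.37, SE 0.22). The APC/C gave Anapc10 (0.15, SE 0.24), Cdc26 (0.13, SE 0.12) and Fbxo5 (-0.29, SE 0.20). Among the inhibitors it was Cdkn1a (-0.28, SE 0.23), Cdkn1a again in miR-183, and Cdkn2a (1.34, SE 0.84), a gene of low counts that reached 26.1 in 1 miR-222 tumour.

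**Figure D5:**
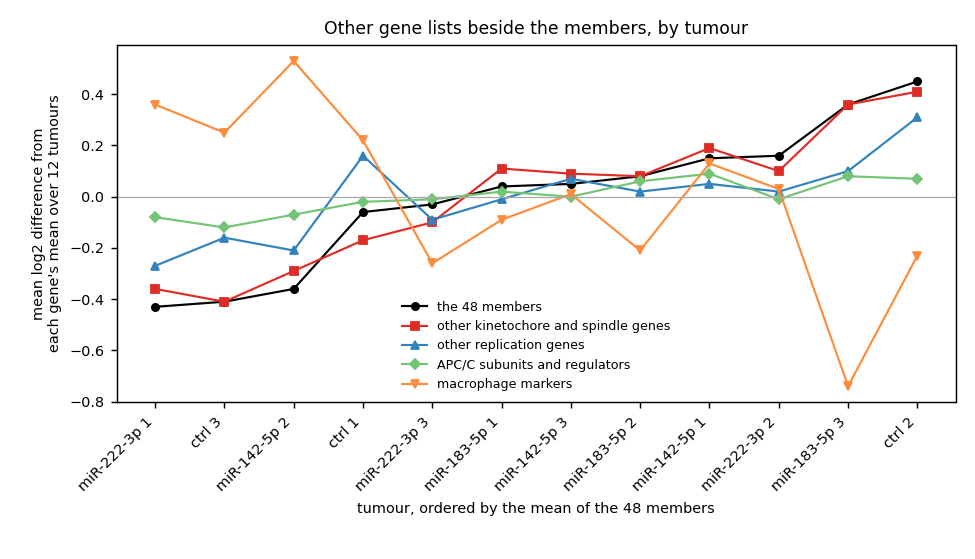
Mean log2 difference from each gene's mean over the 12 tumours for 5 gene lists (lines), with the tumours on the x axis ordered by the mean of the 48 members. The other kinetochore and spindle genes run from -0.41 to 0.41 and the other replication genes from -0.27 to 0.31, the APC/C genes stay between -0.12 and 0.09, and the macrophage markers run from -0.74 in miR-183 tumour 3 to 0.53 in miR-142 tumour 2.

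The order of tumours seen in the members was shared by pathway genes outside the list. The other kinetochore, spindle and cytokinesis genes were at 0.41 in ctrl tumour 2 and 0.36 in miR-183 tumour 3, and at -0.41 in ctrl tumour 3 and -0.36 in miR-222 tumour 1, as log2 differences from the gene means. The APC/C subunits kept a much narrower range.

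Markers of other cells varied among the same tumours. The 7 macrophage markers summed to 2179, 1722 and 2122 TPM in ctrl tumours 1 to 3, 2011, 2708 and 1849 TPM in miR-142, 1709, 1658 and 1129 TPM in miR-183 and 2271, 2014 and 1522 TPM in miR-222. The sum was highest in miR-142 tumour 2, where the members were low, and lowest in miR-183 tumour 3, where they were high. Every miR-183 tumour was below every ctrl tumour in this sum, narrowly so for ctrl tumour 2 (1709 against 1722 TPM). As mean log2 differences from the gene means, the macrophage markers were at 0.22, -0.23 and 0.25 in ctrl. On that scale the miR-183 tumours, at -0.09, -0.21 and -0.74, overlapped ctrl. The 6 epithelial markers summed to 1430 to 1893 TPM in ctrl, 1285 to 1881 TPM in miR-142, 1463 to 1652 TPM in miR-183 and 1363 to 1498 TPM in miR-222. The 5 fibroblast markers summed to 375 to 902 TPM in ctrl, 270 to 763 TPM in miR-142, 907 to 1108 TPM in miR-183 and 355 to 1375 TPM in miR-222, so that every miR-183 tumour was above every ctrl tumour. The 5 erythroid markers summed to 379, 361 and 450 TPM in ctrl and 272, 151 and 266 TPM in miR-222, where every tumour was below every ctrl tumour. They reached 282 to 680 TPM in miR-142 and 435 to 761 TPM in miR-183. The 5 neutrophil markers summed to 1004 to 1933 TPM in ctrl, 969 to 1600 TPM in miR-142, 1793 to 2909 TPM in miR-183 and 851 to 1916 TPM in miR-222. Every miR-183 tumour was above every miR-142 tumour in these, and each group overlapped ctrl. Markers of T cells, B cells, endothelial cells, skeletal muscle, adipocytes and skin keratinocytes overlapped ctrl in every group. The part of cell composition in the members' values was not tested.

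Transcripts of a member were summed, and their split differed among members. One transcript held at least 90% of the TPM in every tumour for 11 members, such as Mcm2 (97.4% to 99.5%), Ccnd1 (96.8% to 98.8%), Plk1 (96.1% to 100%), Ube2c (99.4% to 100%) and Mki67 (98.6% to 100%). For 5 members the leading transcript is annotated as a retained intron or a target of nonsense-mediated decay, namely Gins2 (65.6% to 72.7%), Tyms (51.5% to 60.9%), Rrm1 (37.7% to 58.1%), Cdk4 (22.9% to 37%) and Cenpa (28.8% to 39.5%). Transcripts not annotated as protein coding held a median of over 50% of the TPM of 9 members, Kif23 (66.4%) among them. The leading Ccne2 transcript held 26.8% to 79.3% between tumours. Reads on 16 near-identical pseudogene copies of 11 members were at most 0.35% of the reads of the member.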

How the data were processed

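RNA-seq tables of 12 tumours, 1 per library, were used. The authors had mapped the reads to Ensembl transcripts with Salmon (genome build GRCm38 per the labels) and deposited, for each transcript, estimated counts, an effective length and TPM, an abundance scaled within each library. Ensembl releases named in the sources differ, so transcripts were matched to GENCODE M21 (116622 of 118783, 98.2%), and counts and TPM were summed per gene. The total depth was 20285968 to 27021401 estimated reads per library, of which 0.669% to 0.708% lay on unmatched transcripts.

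Sums were rounded, and genes with at least 10 counts in at least 3 libraries (15473) were fitted with DESeq2 1.42.0 (R 4.3.3) on all 12 libraries, with the effective length as an offset and a threshold of 0.05 on p adjusted by Benjamini-Hochberg. Intervals of fold changes are at 95%. Counts were simulated for miR-142-5p against ctrl (15473 genes, 200 of them changed 2-fold). The changed genes were drawn from those with a mean normalised count above 100. DESeq2 recovered 89.5% of them and 21.5% of its calls were false, a share well above the threshold of 0.05. edgeR recovered 75% with 7.41% false. The members varied more within groups than genes of that level (median SD 0.361 against 0.192), so these shares are not those of the members. The limma fit was not simulated. Alternatives were edgeR 4.0.16, limma 3.58.1 on log2(TPM + 1), TMM factors, other filters, no length offset, pseudogene copies (BLAST 2.17.0, at least 95% identity) added to their member, a fit of the compared groups alone, the replicate number as a block, and leaving out each tumour. Groups and numbers came from the labels. Same-numbered tumours of different groups did not deviate together on average (mean correlation -0.0675 over 18 pairs, against 0.0334 over 36 others). Single pairs ran from -0.577 to 0.357 and from -0.422 to 0.615. No pairing by number was seen, but with 3 tumours per group the check cannot exclude a shared batch.

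The members and lists were chosen with earlier results of these data known. Values in every tumour were given for the 3 members of lowest p in each contrast with ctrl and in miR-183 over miR-142, and for Mki67, Top2a, Pcna, Mcm2, Ccnd1, Ccne1, Ccna2, Ccnb1, Cdk1, Plk1, Aurka, Birc5, E2f1 and Foxm1. Of each pathway list the gene of lowest p in each contrast with ctrl was named, and always Cdkn1a, Cdkn1b, Cdkn1c and Rb1.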

Additional observations from a re-analysis of the deposited data

How the results depend on the processing

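In no setting was a member called in any of the 6 contrasts. Over the 9 alternatives of test, normalisation, filter, length offset, copies, samples and block, the median log2 fold change of the members kept its sign in each contrast, from -0.062 to -0.028 in miR-142, 0.13 to 0.177 in miR-183 and -0.125 to -0.071 in miR-222 against ctrl. It lay between 0.224 and 0.239 for miR-183 over miR-142, 0.227 and 0.27 for miR-183 over miR-222, and 0.022 and 0.051 for miR-142 over miR-222. With the replicate block the medians were -0.028, 0.168, -0.117, 0.224, 0.257 and 0.051 in this order, and no call changed. Leaving out 1 tumour mattered more, with medians from -0.206 to 0.226, -0.071 to 0.471 and -0.302 to 0.16 against ctrl, and from 0.066 to 0.293, 0.072 to 0.394 and -0.104 to 0.185 between mimics. On deposited TPM, 1 member (Ccnd1) was lower without overlap in miR-142 than in miR-222, against 0 on normalised counts, and 4 in place of 3 were higher in miR-183 than in miR-142, Anln being the addition. The number of members at an unadjusted p of 0.05 was 10 for miR-183 over miR-222 (4.32% of all genes in that fit), 4 for miR-183 over miR-142 (8.8%) and 2 for miR-183 over ctrl (4.81%) when the compared groups alone were fitted, with 0 called. For miR-183 over ctrl that number was 23 without ctrl tumour 2 and 0 without ctrl tumour 3, again with 0 called. With 3 tumours per group and a median standard error of 0.26 on the log2 scale, most of the members' differences were smaller than their error could show.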
